A study of Arabidopsis thaliana with 6 samples.

Results

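Arabidopsis seedlings that had spent 1 day at 4 °C were compared here with seedlings sampled before the cold, at 22 °C, in wild-type plants and in the mutant lcbk1-2. These are 4 of the 6 arrays of the series, chosen by their labelled times of 0 h and 24 h, and the comparison runs over all genes on the array. Of 22588 features (genes, or probe sets where no gene is annotated), 15653 were bright enough to test. Each feature was asked for a change shared by both genotypes.

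The wild type was the ecotype Columbia-0, and lcbk1-2 is labelled a knock-out of LCBK1, a kinase that phosphorylates the long-chain bases of sphingolipids. All plants were 2 weeks old and were grown on diluted MS medium with 2% sucrose, under 16 h of light at 100 µmol and 8 h of dark. Whole plants were harvested at 0 h (22 °C) and after 24 h at 4 °C, with 1 array per genotype and time. Whether 1 culture or several went into an array is not stated in the labels, so every p-value rests on the spread between arrays. No plants kept at 22 °C were measured at 24 h, so the cold and a further day of growth cannot be told apart. LCBK1 had 0 annotated probe sets, and the mutation was therefore not checked at the transcript. The whole plant holds many cell types, and a lower signal from fewer cells of a type and from less RNA per cell cannot be told apart.

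Plants of temperate climates become more freezing-tolerant after some time at low, non-freezing temperature, a process called cold acclimation. Early transcription factors of the CBF family switch on genes for protective proteins, the plants store soluble sugars and make flavonoids, and expansion growth slows. Long-chain bases and their phosphorylated forms are signalling lipids, and the phosphorylated forms are known to build up in chilled Arabidopsis.

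The values are MAS5 signals, a brightness per probe set on a linear scale, and changes are given as log2 of 24 h over 0 h, averaged over the genotypes. Signals under a floor of 66 were set to 66. A gene at or below the floor in both genotypes at one time has only a lower bound for its change, written "at least", and so has one below the floor on 1 of these 2 arrays. Rose and fell are used for genes with an adjusted p under 0.05 in a limma model across all 15653 features. Pairs of signals are in the order wild type, lcbk1-2, and the signal of one probe set cannot be set against that of another. The median signal was 165 and 164 at 0 h and 144 and 144 at 24 h, and 63.6% to 65.4% of features lay above the floor on each array.

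After 1 day at 4 °C, 7493 features had changed, 47.9% of those tested. Of these, 3019 rose (19.3% of those tested) and 4474 fell (28.6%). The model asks for a shared change, and each of the 7493 moved in the same direction in both genotypes. At least 2-fold in both genotypes, 1197 features rose (7.65%) and 1471 fell (9.4%). Larger changes numbered 344 rises and 326 falls at least 4-fold in both genotypes, 128 and 88 at least 8-fold, 47 and 27 at least 16-fold, and 13 and 4 at least 32-fold. Which direction prevailed at 2-fold depended on the scaling, with 1349 rises and 1232 falls under quantile normalization and 1389 and 1243 with the arrays scaled to a common median. Of the features at least 2-fold higher in the wild type, 78.5% were so in lcbk1-2, and 78.0% the other way round. For falls these shares were 72.8% and 72.5%. The spread of log2 differences between the genotypes at one time was 0.306 (SD over features) at 0 h and 0.323 at 24 h, against 0.993 and 1.0 between the times. The median change over all tested features was -0.11. Scaling the arrays to a common median moved it to -0.01 and made 49.1% of the calls rises, against 40.3% here. Counts of list members are to be read against the 19.3% of all features that rose and the 28.6% that fell. The lists were chosen with earlier results of these data known, so the direction of a list is no independent evidence. With 1 array left out these shares were 10.2% to 11.6% and 14.4% to 15.6%, so the counts of most lists were smaller then too.

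**Figure D1:**
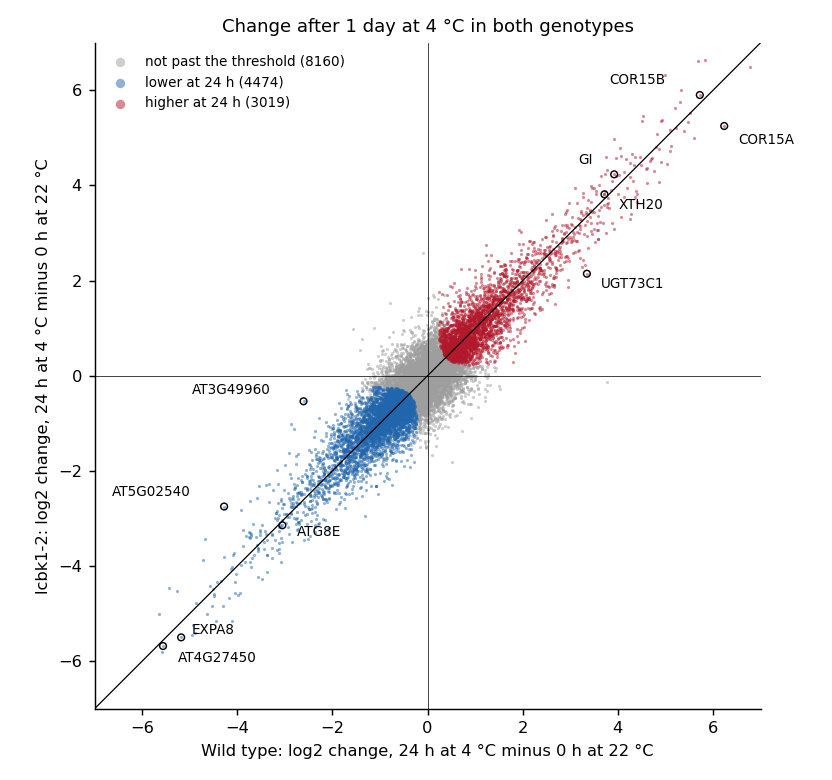
Change after 24 h at 4 °C in the wild type (horizontal axis) and in lcbk1-2 (vertical axis), on the log2 scale, for the 15653 tested features. Points are coloured by the shared call (3019 higher, 4474 lower), the diagonal marks equal change, and most called features lie close to it. Of the circled genes, EXPA8 and GI are shown only here, COR15A and COR15B are named in the text without values, and the others are described there.

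The 20 largest rises of annotated genes ran from at least 23.2-fold to 75.4-fold (AT1G16850). Of these, 6 began below the floor on both warm arrays, and others, such as AT3G17130 at 249.6 and 254, well above it. AT1G56300 gave signals of 66.7 and 69.6 at 0 h and of 2268 and 2497 at 24 h. Both cold arrays stood far above both warm ones, a 34.9-fold rise (log2 change 5.13, SE 0.14, adjusted p = 2.6e-05 in limma). AT2G16890 was below the floor on both warm arrays (46.2 and 41.0) and reached 1969.8 and 2683, at least 34.8-fold higher. LEA4-5, a late embryogenesis abundant protein of the kind that protects cells during drying and freezing, went from 212 and 287 to 7414 and 8174, a rise of 31.5-fold (SE 0.15 on the log2 scale). The groups were again far apart. These genes were picked for their large rises on these arrays, so the distance between the groups is a description. AT1G68500 rose by 4.94, AT1G20030 by 4.74 and AT2G21130 by 4.70 on the log2 scale. The files and the gene table give no function for these loci, and none is given here.

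Some transcripts were above the floor at one time only. At or below the floor on both warm arrays and at least 4 times above it on both cold arrays were 40 features, and 39 showed the reverse. Beside AT2G16890, the annotated genes that appeared most strongly were AT2G22590, AT1G11210, AT2G23910, AT5G42760, AT3G55580, AT2G38465 and UGT78D3. AT1G11210 read 57.1 and 13.8 in the warm and 2002 and 2734 in the cold, at least 35.5-fold higher. AT2G23910 rose at least 24.9-fold, AT5G42760 at least 24.2-fold and AT3G55580 at least 23.2-fold. AT2G38465 rose at least 15.8-fold, from 28 and 10.4 to 872 and 1250.3. On the other side, AT1G33055 went from 871 and 657 to 26.2 and 18.7, at least 11.5-fold lower. P1R1 went from 737 and 582 to 26.2 and 25.7, at least 9.93-fold lower. AT5G42680 fell at least 7.58-fold, AT4G12690 at least 7.17-fold, AT3G15770 at least 6.24-fold, AT3G47560 at least 6.09-fold and AT1G34630 at least 6.08-fold.

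Among the large falls, AT1G25230 went from 2778 and 3051 to 184 and 194, a fall of 3.95 on the log2 scale (SE 0.14, adjusted p = 3.0e-05 in limma). AT2G05540, whose 0 h signals of 6258 and 6927 were bright, went to 480.4 and 428. AT5G50335 went from 1119 and 1055 to 31.8 and 77.4, so the wild type ended below the floor and its fall is at least 15.2-fold. AT2G25200, AT5G56100, AT3G26510, AT5G03230, AT4G19160, AT4G33666 and AT2G32150 changed by -3.90 to -3.62, and for AT2G25200 and AT5G03230, each below the floor on 1 cold array, the value is a bound. AT4G33666 started unequally, at 1919 and 3247, and ended at 186 and 187.

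**Figure D2:**
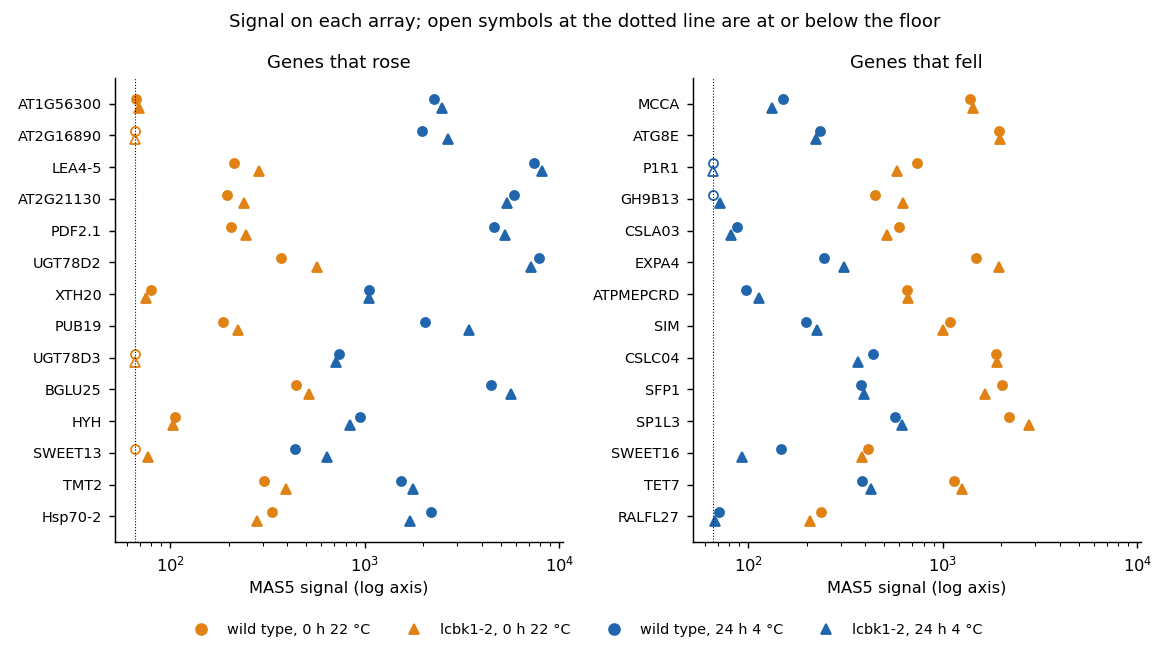
MAS5 signal (log axis) of 14 genes that rose and 14 that fell, on the 4 arrays, with circles for the wild type, triangles for lcbk1-2, orange for 0 h at 22 °C and blue for 24 h at 4 °C. Open symbols on the dotted line are at or below the floor of 66. For each gene both cold arrays lie on the same side of both warm arrays. The genes were picked for their change on these same arrays, so this separation is a description.

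Protective proteins and small secreted defence peptides were among the strong rises. Of 8 tested dehydrins and LEA proteins, hydrophilic proteins that shield membranes and enzymes from drying, 6 rose and none fell. Their median log2 change was 3.11 against -0.11 over all features, a description, because the list was chosen with earlier results of these data known. The dehydrin gene AT1G54410 (HIRD11) rose by 2.60, and AT2G46140 (-0.27) and AT2G44060 (-0.13) did not pass. PDF2.1, which codes for a defensin-like peptide, gave 207 and 245 in the warm and 4615 and 5296 in the cold. This is a 22.0-fold rise (SE 0.14 on the log2 scale, adjusted p = 2.6e-05 in limma). LCR69, of the same kind, was already bright at 6583 and 5580.4 and rose to 38778 and 33460.4, 5.94-fold. Of the 10 tested genes on the list of chitinases, defensins and other defence proteins, 3 rose and 1 fell (2 and up to 1 with 1 array left out), with a median of 0.24, and PDF1.2 (0.28), a marker of jasmonate signalling, did not pass. The 8 members other than PDF2.1 and LCR69 lay between -0.77 and 0.535.

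Chaperone genes gave both directions. Hsp70-2, a cytosolic chaperone, went from 333 and 279 to 2187 and 1716, and Fes1A, a cofactor of Hsp70, from 302 and 355 to 1806 and 1543. They rose 6.36-fold (SE 0.18 on the log2 scale) and 5.10-fold (SE 0.16). Hop1 (0.74) and Hop2 (0.91), which link Hsp70 with Hsp90, rose by less, and both calls were lost with 1 array left out. HSA32 (by at least 0.65 on the log2 scale, with 1 cold array below the floor), the immunophilin-like AT5G48570 (-0.66) and Hop3 fell. These calls were lost with the arrays rescaled to a common median, by quantiles or both. Among tested heat shock and chaperone genes, 4 of 8 rose and 3 fell; with 1 array left out these were 2 to 4 and 0 to 2.

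Sugar transporter genes moved in both directions. SWEET13, a sucrose exporter of the plasma membrane, read 63.3 and 77.0 in the warm and 438 and 643 in the cold, a rise of at least 7.44-fold (2.90 on the log2 scale, SE 0.16, adjusted p = 8.0e-05 in limma). SWEET1, a glucose transporter, went from 670.4 and 604 to 3075 and 3100.1, 4.85-fold higher. TMT2, which loads hexoses into the vacuole, went from 303 and 395 to 1544 and 1776, 4.79-fold higher, while its relatives TMT1 (0.26) and TMT3 (0.38) did not pass. The warm and cold arrays of these genes were well apart, a description only, because the 3 genes that rose were named for their large rises. SWEET16, a transporter of the vacuole membrane, fell 3.41-fold, from 412 and 386 to 147 and 92.8. SFP1 and SFP2, sugar-porter family proteins, fell 4.69-fold and at least 4.01-fold. In all 5 of 16 tested sugar transporters rose (31.2%, against 19.3% of all features) and 4 fell (25.0%, against 28.6%), with a median of 0.24. With 1 array left out 3 rose. Nothing passed among 3 tested starch synthesis genes, APL3 (0.36), APL4 (0.34) and SBE2.2 (-0.29).

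Genes that mark carbon starvation were low after the cold day. The list had 8 members, all tested, and all 8 fell, with a median of -3.41; with 1 array left out 7 to 8 fell. The list was written with the falls of its leading members known, so its direction is no independent evidence. AT4G27450 went from 5047 and 4406 to 107 and 85.9, and AT5G19120 from 7214 and 6636 to 244 and 156. AKINBETA1, which belongs to SnRK1, a kinase activated by low energy, went from 2476 and 2733 to 122 and 137, 20.2-fold lower. None of these overlapped between warm and cold, which is a description, because they were named for their large falls on these arrays. Smaller falls were those of AT3G15450 (-2.48), the RING ubiquitin ligase gene ATL8 (-2.36), AT3G06070 (-2.32) and EXO (-1.07), which codes for an extracellular protein linked to growth under carbon supply.

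Genes for breaking down leucine fell, and those of protein breakdown moved in both directions. MCCA and MCCB encode the subunits of a mitochondrial carboxylase of leucine breakdown, and IVD the dehydrogenase of the step before it. MCCA went from 1390.3 and 1438 to 152 and 132, a 9.99-fold fall (SE 0.14 on the log2 scale, adjusted p = 4.0e-05 in limma). MCCB fell 3.50-fold and IVD 3.49-fold, and all 3 calls held with any array left out. These 3 genes were listed with earlier results of these data known. Autophagy delivers cell contents to the vacuole, and its ATG8 proteins coat the forming vesicle. Of 11 tested autophagy genes 8 fell and 1 rose, with a median of -0.545; with 1 array left out 3 to 4 fell. ATG8E went from 1938 and 1971 to 234 and 223 (8.56-fold lower) and ATG8F from 3811 and 4666 to 785 and 1065 (4.61-fold lower). ATG8C fell by 1.16 on the log2 scale, whereas ATG8G (-0.41) and ATG8H (-0.23) did not pass, and ATG8D rose by 1.04, a call lost with 1 array left out. DELTA-OAT, which turns ornithine towards glutamate and proline, fell 3.18-fold. Of 16 tested serine carboxypeptidase-like genes, whose products are secreted or vacuolar hydrolases and acyltransferases, 8 fell (50%, against 28.6% of all features) and 5 rose (31.2%, against 19.3%), led by scpl50 (-2.18) and SCPL34 (-1.39) among the falls. With 1 array left out 7 fell and 1 to 3 rose.

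On the list of flavonoid and anthocyanin enzymes 6 of 9 tested genes rose and none fell, with a median of 1.58. This list, too, was chosen with earlier results of these data known. UGT78D2 encodes a flavonoid 3-O-glucosyltransferase, UGT78D3 an arabinosyltransferase and UGT78D1 a rhamnosyltransferase of flavonols. UGT78D2 went from 374 and 567 to 7904 and 7163, 16.4-fold higher (SE 0.205 on the log2 scale, adjusted p = 6.3e-05 in limma). UGT78D3 read 2.6 and 4.7 in the warm, far below the floor, and 740.3 and 713 in the cold, at least 11-fold higher. UGT78D1 went from 266 and 368 to 917 and 959.9 (log2 change 1.58). CHIL, a chalcone isomerase-like protein that helps the first committed enzyme, rose 4.78-fold, and UGT80B1, a sterol glucosyltransferase needed for normal seed coat pigment, 3.91-fold. DFR, which commits precursors to anthocyanins, read 66.5 and 132 in the warm and 87.4 and 100.0 in the cold and did not pass (SE 0.215 on the log2 scale). UF3GT (0.44), a flavonoid glycosyltransferase gene, and AT5MAT (0.11), an anthocyanin malonyltransferase gene, did not pass either. AT4G14090, also on the list, rose by 0.89 on the log2 scale, so the genes of this list outside the UGT78D group were not all unchanged. The phenylpropanoid and lignin list had 0 of 4 tested members past the threshold, which were ALDH2C4, AT1G80820, CCOAMT and HCT. Other enzymes of that pathway are not covered by these 4.

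The wider family of UGT glycosyltransferases, which attach sugars to hormones, phenolics and foreign compounds, moved in both directions. Of 37 tested members of this list 15 rose (40.5%) and 11 fell (29.7%, near the 28.6% of all features). The list was matched by name, so genes of the family carried under a locus number alone may be missing from these counts. With 1 array left out 10 to 15 rose and 7 to 9 fell. There were 12 rises and 8 falls at least 2-fold in both genotypes, and the median was 0.295. UGT84A3, which glucosylates hydroxycinnamic acids, went from 130 and 169 to 1558 and 1413, a rise of 3.32 on the log2 scale. UGT73C1 was below the floor in the warm and reached 673 and 292, at least 6.71-fold higher. UGT72B3 rose by 2.72 and UGT84A1, at the floor in the warm, at least 4.26-fold. UGT72E1, a glucosyltransferase of lignin precursors, went from 1982 and 2212 to 498 and 502, 4.19-fold lower. UGT71C1 and UGT85A4 ended below the floor on both cold arrays, at least 5.31-fold and at least 5.14-fold lower, and UGT85A2 fell by 1.56 on the log2 scale. Of the UGT71C genes, UGT71C1 and UGT71C2 (-1.14) fell, and UGT71C3 (0.91), UGT71C4 (0.29) and UGT71C5 (0.15) did not pass.

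Genes for wall loosening changed in opposite directions within 1 protein family. Expansins loosen the contacts between wall polymers as cells enlarge. Of 11 tested alpha- and beta-expansins 7 fell, none rose and 4 did not pass, with a median of -0.77; with 1 array left out 4 to 7 fell. EXPA4 went from 1491 and 1958 to 247 and 312, 6.15-fold lower (log2 change -2.62, SE 0.15, adjusted p = 8.0e-05 in limma), and EXPB3 from 1149.7 and 1611 to 348 and 392, 3.68-fold lower. All 3 tested expansin-like A genes, a separate branch of the family, rose. EXLA3 went from 63.9 and 78.2 to 318 and 376 (at least 4.81-fold), EXLA2 from 463 and 470.2 to 1639 and 1577 (3.45-fold) and EXLA1 from 797 and 963 to 2332 and 3839 (3.42-fold, a call lost with 1 array left out). Xyloglucan endotransglucosylases, which cut and rejoin the hemicellulose that tethers cellulose, moved both ways. Of 8 tested, 2 rose (25.0%, against 19.3% of all features) and 3 fell (37.5%, against 28.6%). With 1 array left out these were 1 to 2 and 1 to 3. XTH20 rose 13.6-fold, from 79.6 and 75.2 to 1047 and 1056, and XTH16 fell 3.53-fold, from 1206 and 979 to 320.0 and 296.

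On the list of cellulose, hemicellulose and acetylation enzymes, which build or trim the wall, 13 of 33 tested genes fell (39.4%, against 28.6% of all features) and 2 rose (6.06%, against 19.3%), with a median of -0.44. Under quantile normalization 11 fell and 2 rose, and with 1 array left out 9 to 12 fell and 0 to 1 rose. GH9B13, an endoglucanase-family gene, went from 450.5 and 626 to 45.1 and 71.7, at least 7.72-fold lower. CSLA03, of the glucomannan synthase family, went from 597 and 519 to 87.4 and 82.0 (6.58-fold lower), and CSLC04, a synthase of the xyloglucan backbone, from 1871 and 1899 to 438 and 368 (4.70-fold lower). TBL25, a wall polysaccharide acetyltransferase, fell 4.54-fold. Within this list 6 of 17 tested TBL genes fell and 1 rose, and 4 of 7 tested CSL genes fell and none rose. Of 5 tested pectin genes 3 fell and 2 rose (2 to 3 and 0 to 2 with 1 array left out). The pectin methylesterase genes ATPMEPCRD (-2.64) and PME61 (-1.68) were among the falls.

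Most tested genes of auxin response and of growth peptides fell. Of 12 tested auxin response genes 10 fell and none rose, with a median of -1.11, and 5 to 8 fell with 1 array left out. Beyond its known leading members, GH3.17, which conjugates auxin to amino acids, fell by 1.66, IAA18, an auxin-response repressor, by 1.04 and YUC2, an auxin synthesis enzyme, by 0.73 on the log2 scale. YUC6 (0.13) and AT2G18010 (-0.33) did not pass. Among 10 tested genes for RALF and CLE peptides, secreted signals of growth and meristem upkeep, 7 fell (70.0%, against 28.6% of all features) and none rose. With 1 array left out 3 to 5 fell, and with the arrays scaled to a common median 5. The falls were those of 6 of 7 RALFL genes and of CLE41 (-0.50), whereas CLE27 (0.15), CLE44 (0.13) and RALFL24 (-0.35) did not pass. RALFL27 went from 237 and 207 to 70.7 and 68.0, RALFL31 from 420.3 and 463 to 122 and 161, and RALFL34 from 4162 and 4122 to 1866 and 1693, falls of 3.19-fold, 3.15-fold and 2.33-fold. SIM, an inhibitor of cell division that promotes endoreduplication, went from 1093 and 1010.2 to 199 and 226, 4.95-fold lower, while the Aurora kinase genes AUR1 (-0.30), AUR2 (-0.11) and AUR3 (-0.34), which act in mitosis, did not pass.

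Proteins of the cytoskeleton and the plasma membrane that shape cells followed a mixed course. Of 10 tested IQD scaffolds, which join calmodulin to microtubules, 7 fell and 1, IQD23 (1.40), rose; with 1 array left out 4 to 6 fell. IQD22 fell 2.50-fold. SP1L3, a microtubule-associated protein of directional growth, went from 2195 and 2774 to 572 and 619.9, 4.15-fold lower. The TRM genes, which recruit a microtubule-organising complex, had 5 falls and 1 rise in 9 tested members, and the actin-network NET genes 2 falls and 3 rises in 7. With 1 array left out the TRM falls were 3 to 4, and the NET genes had 0 to 1 falls and 0 to 2 rises. Of 7 tested tetraspanins 4 fell and 2 rose: TET7 went from 1146 and 1257 to 386 and 428 (2.95-fold lower) and TET3 from 1724 and 1897 to 5386 and 5171 (2.92-fold higher). TUB9, a beta-tubulin, rose 4.22-fold from 1382 and 1455 to 5668 and 6313, while TUB6 (-0.73) and TUB1 (-0.56) fell, both calls lost with 1 array left out, and TUB5 (0.15) and TUB7 (0.33) did not pass. ATMAP65-6, a microtubule bundler, fell 2.64-fold.

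**Figure D3:**
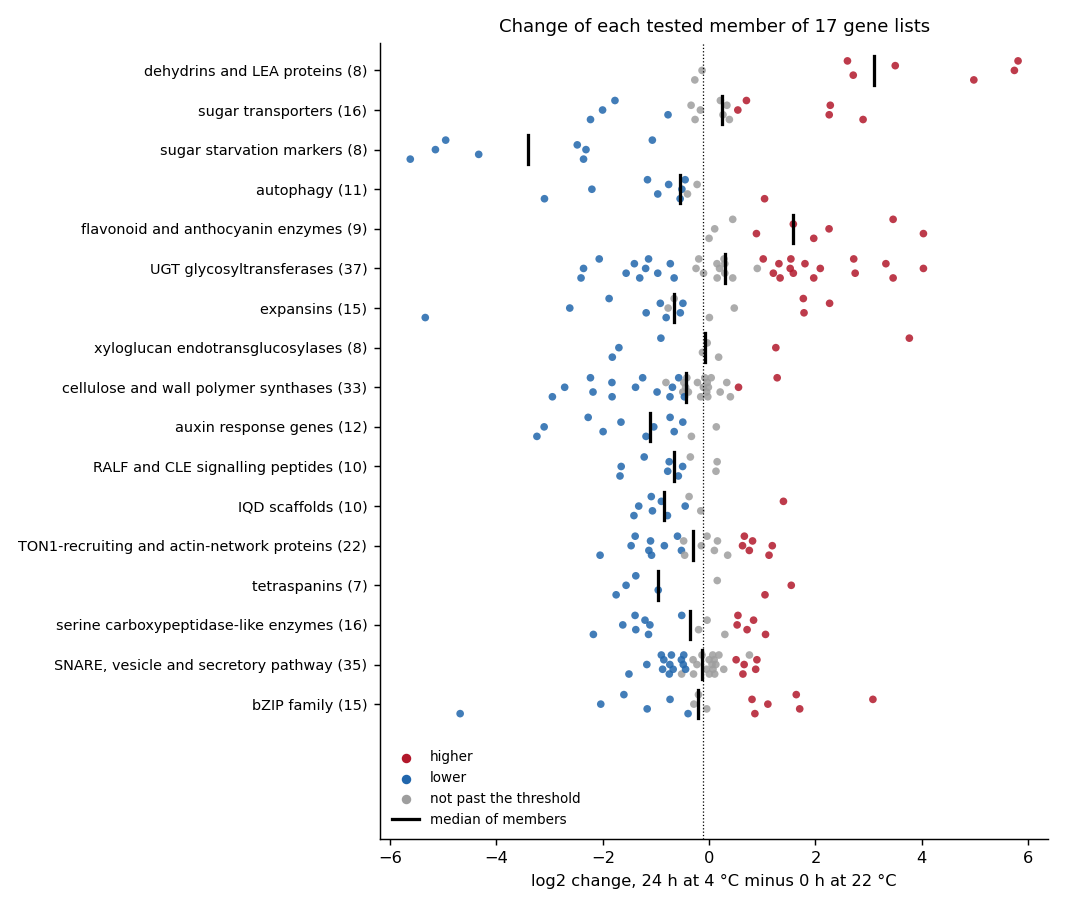
Change of every tested member of 17 gene lists on the log2 scale (24 h at 4 °C minus 0 h at 22 °C). Each point is 1 gene, red where it rose, blue where it fell and grey where it did not pass, black bars mark list medians, the dotted line is the median of all tested features (-0.11), and the number of tested members is in brackets. Sugar starvation markers lie wholly to the left and the 3 expansin-like A genes stand to the right of the other expansins.

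Photosynthesis genes of the nucleus and of the chloroplast genome were read side by side. Of 13 tested nuclear genes for photosystem and antenna proteins 3 fell (23.1%) and 1 rose (7.69%), with a median of -0.20, both shares below those of all features (28.6% and 19.3%). Leaving out 1 array gave 1 to 3 falls and no rise. PSB27, which helps to assemble photosystem II, fell by 0.74, a call lost with 1 array left out, and NdhS, of the cyclic electron flow complex, went from 2499.5 and 3314 to 1314 and 1654. None of 4 tested genes of carbon fixation and photorespiration passed. RCA, the activator of Rubisco, read 32749.5 and 27449 in the warm and 31387 and 27771 in the cold, and PRK, SBPASE and HPR lay between -0.32 and 0.15. Of 8 tested chlorophyll synthesis genes 2 fell (25.0%, below the 28.6% of all features) and none rose. The falls were CHLM (-0.69) and HEME1 (-0.61), and neither call held with every array left out in turn.

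Among 68 tested chloroplast-encoded genes 22 rose (32.4%, against 19.3% of all features) and 3 fell (4.41%, against 28.6%), with a median of 0.36. Their median signal was 2570 and 2640 in the warm and 3360 and 3900 in the cold. The count depended on the arrays, with 7 to 14 rises when 1 was left out, where 10.2% to 11.6% of all features rose. rbcL, the large subunit of Rubisco, went from 2306 and 2854 to 8255 and 8421, 3.25-fold higher (log2 change 1.70, SE 0.14, adjusted p = 2.9e-04 in limma). ndhJ, of the NDH complex, went from 874 and 1191 to 2493 and 3258 (2.79-fold), and psbA, the reaction-centre protein D1, rose by 1.17. The falls were rpl33 (-0.94), rps18 (-0.90) and psbJ (-0.79), and each was lost with 1 array left out. By complex, rises were 5 of 20 photosystem genes, 2 of 6 of cytochrome b6f, 1 of 6 of ATP synthase, 3 of 9 of NDH, 5 of 15 of ribosomal proteins and 1 of 4 of the RNA polymerase. With so few genes in each, these counts do not set any complex apart from the 19.3% of all features.

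Several genes of mitochondrial respiration rose. Of 10 tested nuclear respiration genes 5 rose and none fell, with a median of 0.31. CYTC-2, a cytochrome c, went from 1965 and 1633 to 4113 and 3995 (2.26-fold), SDH2-1, a succinate dehydrogenase subunit, from 2193 and 2113 to 4319 and 4931 (2.14-fold), and SDH1-1 rose by 0.85. Their relatives CYTC-1 (0.08) and SDH2-2 (0.02) did not pass. Of 10 tested genes of the mitochondrial genome 3 rose and 1 fell (1 to 2 and 0 with 1 array left out). cox1, a subunit of cytochrome oxidase, went from 229.7 and 295 to 1497 and 1249, 5.25-fold higher, and nad5 (0.23), nad6 (0.20) and nad1 (-0.12) did not pass.

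**Figure D4:**
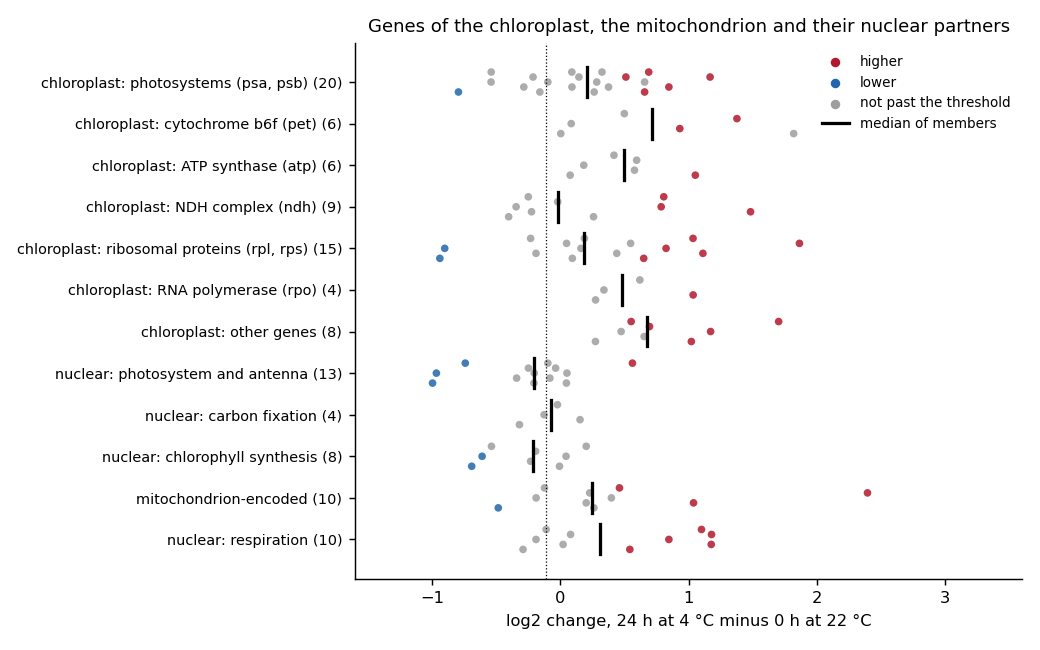
Change of tested genes of the chloroplast and mitochondrial genomes and of nuclear genes for photosynthesis and respiration, on the log2 scale, drawn as in the plot of gene lists. The chloroplast-encoded genes spread from -0.94 to 1.86, and cox1 (2.39) stands apart from the other mitochondrion-encoded genes.

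Some genes for making RNA and ribosomes rose. Of 9 tested ribosome biogenesis factors 5 rose and none fell, with a median of 0.62, and 3 to 4 rose with 1 array left out. AT3G55510 (REBELOTE) went from 143 and 137 to 443 and 627 (3.78-fold higher) and AT5G14520 (PESCADILLO), a factor of the large ribosomal subunit, from 2099.8 and 1875 to 3964 and 4240.2 (2.07-fold). NRPA1 and NRPA2 encode the largest subunits of RNA polymerase I, which makes ribosomal RNA, and rose by 1.38 and 0.84, both calls lost with 1 array left out. NRPB7, of RNA polymerase II, went from 370.1 and 351 to 944 and 1224, 2.98-fold higher. MED6, of the Mediator complex, ended below the floor in both genotypes, at least 4.60-fold lower. Of 23 tested genes on the list of RNA polymerase subunits and related proteins 6 rose (26.1%, against 19.3% of all features) and 3 fell (13%, against 28.6%). When 1 array was left out 2 to 4 rose and 1 to 2 fell.

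Transcription factors changed in both directions, with some of the largest changes of the comparison. Of 15 tested bZIP genes 6 rose and 6 fell (4 to 5 of each with 1 array left out). HYH, which acts with HY5 in light responses, went from 107 and 104 to 943 and 843, 8.46-fold higher (SE 0.14 on the log2 scale, adjusted p = 5.1e-05 in limma). BZIP60, a transcription factor of the unfolded protein response, went from 898 and 871 to 2576 and 2945 (3.12-fold), and bZIP44 rose 3.26-fold. BZIP61 went from 1742 and 1895 to 75.8 and 41.2, at least 25.7-fold lower, and bZIP52 fell at least 4.11-fold. Of 5 tested ERF genes 2 rose and 3 fell (1 and 1 to 2 with 1 array left out), with TINY2 from 66.8 and 56.4 to 474 and 464 and AT5G61590 (DEWAX), a repressor of wax synthesis, from 2989 and 3004 to 259 and 309. WRKY6 rose 3.69-fold and WRKY22, linked to immune signalling, fell at least 3.98-fold. NAC014 fell by 1.37, and AT5G47390 (KUA1), a MYB-like regulator of cell expansion, by 1.35. RTE1, which acts with an ethylene receptor, fell by 1.74.

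Calcium, redox and detoxification genes gave no common direction. Of 13 tested calcium sensors and glutamate receptor-like channels 3 rose (23.1%) and 4 fell (30.8%), near the 19.3% and 28.6% of all features. With 1 array left out 1 rose and 3 fell. CML30 went from 256 and 243 to 92.8 and 83.3 and CML42 from 407 and 436 to 168 and 188, falls of 2.84-fold and 2.37-fold, and CML37, at the floor in the warm, rose at least 2.89-fold, a call lost with 1 array left out. Of 11 tested glutathione transferases 3 rose (27.3%, against 19.3% of all features) and 2 fell (18.2%, against 28.6%). With 1 array left out these were 1 to 3 and 2. GSTU25 was 4.35-fold higher, from 878 and 943 to 4392 and 3568, and GSTU18 3.83-fold lower, from 956 and 1153 to 284 and 265. Of 14 tested cytochromes P450 3 rose (21.4%) and 6 fell (42.9%), against 19.3% and 28.6% of all features; with 1 array left out 2 rose and 2 to 4 fell. Of 10 tested BGLU genes, beta-glucosidases that split sugars from defence and lignin precursors, 2 rose and 4 fell. The share of rises was near the 19.3% of all features, and the falls are to be read against 28.6%. Leaving out 1 array gave 2 rises and 3 to 4 falls. These genes were matched by name, so PYK10, a root beta-glucosidase that did not pass, is not in the count. BGLU25 went from 443 and 517 to 4484 and 5641, 10.5-fold higher, and BGLU16 fell 3.37-fold.

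Transporters of nitrogen compounds and the ubiquitin system held single large changes. AT3G21670 (NPF6.4), of the nitrate transporter family, went from 639 and 1055 to 4551 and 4993, 5.80-fold higher, and AT1G68570 (NPF3.1) rose 3.67-fold. GTR1 and GTR2, which import glucosinolates into cells, changed oppositely, GTR1 from 383 and 340 to 1046 and 967 (2.79-fold higher) and GTR2 from 1036 and 900.0 to 534 and 428 (2.02-fold lower). PUB19, a U-box ubiquitin ligase of drought responses, went from 187 and 224 to 2047 and 3423, 13-fold higher, whereas 4 of 8 tested PUB genes fell, led by PUB26 at 2.63-fold lower (1 to 2 fell with 1 array left out). Of 35 tested genes of vesicle traffic 13 fell (37.1%) and 5 rose (14.3%), against 28.6% and 19.3% of all features, with a median of -0.13 and falls of at most 1.51 (PRA1.F1). With the arrays scaled to a common median 9 fell, and with 1 array left out 4 to 7 fell and 1 to 2 rose.

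Root and shoot markers were above the floor on all 4 arrays and their changes were under 1 on the log2 scale. Of 4 tested root markers 3 fell, the root hair genes EXPA7 (-0.54) and EXPA18 (-0.49) and AT4G26010 (-0.80), and all 3 calls were lost under several alternatives. The summed signal of all 4 was 23404 and 21658 in the warm and 20670 and 21739 in the cold, most of it from PYK10, a root beta-glucosidase that read 22106 and 20308 in the warm and 19831 and 20924 in the cold and did not pass. The sum of the other 3 was 1297 and 1350 in the warm and 839 and 815 in the cold. Of 2 tested shoot markers RCA did not pass and LHCB4.2 fell, and their sum went from 62496 and 53651 to 46414 and 40826. Whether a changed share of root in the sample plays a part in any result was not tested.

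Genes that lie next to each other on a chromosome were compared. Of 2906 pairs of neighbouring protein-coding genes with both members tested, 122 pairs rose together (4.2%), 289 fell together (9.94%) and 263 had 1 gene up and 1 down (9.05%). Multiplying the shares of single genes that rose or fell would give 3.47%, 8.66% and 11%, and the differences from these were not tested. At least 4-fold in both genotypes, 3 pairs rose together, 3 fell together and 2 were opposite. COR15A and COR15B are one such pair, and their probe sets may share signal because the genes are alike. AT5G62350 and AT5G62360 rose by 2.51 and 5.42. AT2G24560 rose by 3.43, at least, from below the floor, while its neighbour AT2G24550 fell by 2.87, and AT4G39670 rose by 3.25 while AT4G39675 fell by 2.71. When 8413 protein-coding genes were split by length into 4 groups of nearly equal number, 3.14% of the shortest group (up to 1670 bases) rose and 3.18% fell at least 4-fold in both genotypes, against 1.19% and 0.713% in the longest, while the shares called higher were 18.9% and 19.1% and those called lower 30.7% and 25.0%. These differences were not tested, and length was not separated from signal level or function. Of 998 annotated pseudogenes 44 were bright enough to test, of which 8 rose and 7 fell.

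The genotypes differed in the size of some changes. Over the called features the median difference between them was 0.235 on the log2 scale, close to 0.247 over all tested features, and 132 (1.76%) differed by more than 1. Of 60 such genes with 1 annotation, the change was larger in lcbk1-2 for 35 and in the wild type for 25. AT3G49960 dropped from 402 to 61.6, below the floor, in wild-type plants but from 295 to 203 in the mutant, and AT5G02540 from 1321 to 68.2 and from 794 to 118. In both genes the wild type started higher and ended lower. AT2G36360 did the reverse, with 325 and 158 in wild-type plants beside 382 and 68.7 in the mutant, and AT1G76270 rose from 138 to 323 and from 69.5 to 466. These 4 were among the 6 named for the largest differences, so the differences are a description. With 1 array each, a difference between genotypes in the response has no test.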

How the data were processed

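Transcript levels were measured in whole seedlings on Affymetrix ATH1 arrays, with 6 µg of RNA for each labelling, per the labels. For every array the authors deposited an intensity of each probe set, computed with MAS5 according to the submitters' processing notes (version not given in the sources used here). The values are on a linear scale, and their 2% trimmed mean is 500.1 on each array. Array number limits the precision; detection calls were not used here.

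Of 22810 probe sets 64 controls were left out. Of the other 22746, 13513 were annotated to 1 gene (13484 matched in the RefSeq TAIR10.1 gene table), 503 to several and 8730 to none; the last 2 kinds were tested and not named. The brightest probe set of a gene was kept, which removed 158. The gene table gave names, gene lengths and neighbours. Values under 66 were set to 66, close to the 35th percentile of all values (65.9), and log2 was taken with no further scaling. A feature was tested if 2 or more arrays exceeded the floor, with limma 3.58.1 in R 4.3.3, on all 6 arrays with genotype and time as additive terms. Tests were two-sided, p-values were adjusted by the Benjamini-Hochberg method over all tested features, and those under 0.05 were called. The fit left 2 residual degrees of freedom (prior 4.19), so each SE holds array error together with any genotype difference in the response. Values at the floor do not vary, so their SE can be too small. The fit was also run on simulated arrays with known changes, which checks the code and says nothing about the error of these arrays.

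Gene members and lists were chosen with earlier results of these data known: 83 lists, matched by symbol, product name or locus, with mismatched names removed by hand, of which 7 had no tested member. Lists are described by counts and medians, with no test. Named genes were the 20 largest rises and 20 largest falls past the threshold and at least 2-fold in both genotypes, the 8 strongest at the floor on either side, up to 4 rises and 4 falls per list (all members of a list of 6 or fewer), and the 6 called genes with the largest genotype difference. Others named were chosen after their values were seen, as were the neighbouring pairs. Alternatives were the 4 arrays alone, no genotype term, other floors, filters, scalings and thresholds, the mean over probe sets, and 1 array left out.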

Additional observations from a re-analysis of the deposited data

How the results depend on the processing

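The 7493 changed features stayed within 1.5 times under the fit to the 4 arrays alone (6565), floors at the 20th and 50th percentile (6466 and 6694) or none (6914), filters of 2 of the 4 arrays (7547) or all 6 (6711), quantile normalization (7305), median scaling (7183) and the mean over probe sets (7496). Rises were 40.3% of calls, 47.9% under quantile normalization (3501 against 3804) and 49.1% under median scaling (3524 against 3659), so the excess of falls depends on the scaling. With no filter on dim probe sets 3584 passed, where many features at the floor have no spread. At an adjusted p of 0.01 there were 4835. Leaving out 1 array (1 residual degree of freedom remains) gave 3861 to 4255 calls, 4255 without wild-type 0 h, 3861 without wild-type 24 h, 4096 without lcbk1-2 0 h and 3972 without lcbk1-2 24 h. Of features changed the same way in both genotypes, 670 passed 4-fold in place of 2668 at 2-fold. Genotype was the block that pairs the arrays; with no replicate block 7189 passed.

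No named gene past the threshold changed direction, and named genes that did not pass were not checked for this. Of 320 named genes past the threshold, 101 changed at least 4-fold, and 1 of these (CYP71B23, without 1 array) lost its call with an array left out, against 123 of the other 219. With no filter on dim probe sets 129 lost their call. Among genes still tested, 56 lost their call under the other fits, floors, filters, scalings or the mean over probe sets. All 56 were changes under 1.63 on the log2 scale. The stricter threshold of adjusted p was not part of this count. Genes that a filter or a higher floor removed were not counted as lost. The filter on all arrays removed genes such as AT2G22590 (log2 change at least 5.40), so large changes from the floor were not checked by it. Signals near the floor limit what dim genes show, and the labels do not settle culture, pooling or time of day.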

Other observations

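One signal stood apart from the other arrays. petL, a small subunit of the chloroplast cytochrome b6f complex, read 66.3 on the wild-type 0 h array and 909 at 24 h, and 1259 and 1141 in lcbk1-2. At 3 h it read 908 in the wild type and 1364 in lcbk1-2, so the wild-type 0 h array was the low one of 6. petL therefore had the largest difference between genotypes of any tested annotated gene (log2 change 3.78 in the wild type, -0.14 in lcbk1-2) and did not pass (adjusted p = 0.142 in limma, SE 0.89). AT1G26380 read 195 and 5.84 at 0 h and 34.7 and 130 at 24 h, and its genotypes moved oppositely without passing. Both genes were chosen after their values were seen, and with 1 array per genotype and time these differences have no test.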
